A study of Salvelinus alpinus with 144 samples.

Results

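The comparison described here is between hybrid and pure embryos of Arctic charr that shared a maternal morph. At 200 τs, 9 SBxPL embryos, from small benthic (SB) mothers and planktivorous (PL) fathers, were compared with 9 SBxSB embryos, with both parents small benthic. The members are these 18 libraries of the 72 mRNA libraries in the series, and they were chosen by their labels for cross-type, time point and kind of RNA. SBxPL was made up of families H1505, H1506 and H1507, and SBxSB of families H1502, H1503 and H1504. Each family gave 3 siblings, lettered A, B and C. The labels also give each letter as a sequencing batch, whereas the study's reporting summary places the batches in the small RNA work and has the mRNA sequenced together. RNA came from whole embryos reared in one hatching tray, and no treatment was applied to any group. The unit τs measures developmental age by the time needed to form a somite pair, so that embryos reared at changing temperatures can be matched. Both crosses had SB mothers and differed in the morph of the father. Only SBxPL is a hybrid, and the crosses came from different families, so the father's morph, hybrid state and family cannot be told apart. Siblings share both parents, so the 9 embryos of a cross stand for 3 families, and whether families shared a parent is not given in the sources used here.

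Small benthic and planktivorous charr live side by side in Lake Thingvallavatn in Iceland. The benthic morph feeds on the bottom with a blunt snout and a subterminal mouth, and the planktivorous morph feeds in open water with a terminal mouth. Around these stages the trunk muscle differentiates and the cartilages of the head form. Salmonids descend from an ancestor whose genome doubled, so many of their genes exist as near-identical copies. Reads from such copies can be divided between them, and the values of single genes below are uncertain to that extent. In muscle, thick and thin filaments are ordered into sarcomeres, Z-disc proteins anchor them, and calcium-binding parvalbumins speed relaxation.

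Every library held between 12589944 and 16388002 counts in SBxPL and between 14106317 and 16274910 in SBxSB at 200 τs. Levels are given in CPM, the reads of a gene scaled to a common library size with TMM factors. Labels of the pure crosses were checked with 14 genes. For these genes, the 9 PLxPL and 9 SBxSB embryos lay more than 0.5 apart on the log2 scale at 200 τs. On a scale set at 0 for the SBxSB mean and 1 for the PLxPL mean at that age, SBxPL embryos lay between 0.136 and 0.379. Only pure crosses at 150 τs could go against their label, because those at 200 τs defined the scale. Hybrids have no set place on it, so the labels of SBxPL were not checked this way. In the pure crosses at 150 τs, 5 libraries went against their label, all of them with letter A. The libraries labelled SBxSB from H1502 and H1504 lay at 0.900 and 0.929, and 3 libraries labelled PLxPL lay between -0.122 and 0.00673. These 5 libraries bear on the values at 150 τs and, through the shared estimate of spread, on every test. Hybrid libraries, not checked, stay in the fits without the 5. At 150 τs, PLxSB libraries with letter A lay at 0.265 to 0.287 and those with B or C at 0.3435 to 0.601. For SBxPL, letter A lay at 0.3425 to 0.471 and B or C at 0.265 to 0.482. The main counts of calls for SBxPL against SBxSB are given with and without the 5 libraries. Of the tissue markers, titin (ttn) ranged from 214 to 765 CPM over the 18 embryos. Matrilin 1 (matn1) of cartilage ranged from 44.2 to 248 CPM and the lens crystallin cryaa from 13.2 to 35.2 CPM. The slow troponin tnnt1 did not exceed 0.321 CPM, and the liver fibrinogen chain fgb ranged from 2.53 to 252 CPM.

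**Figure D1:**
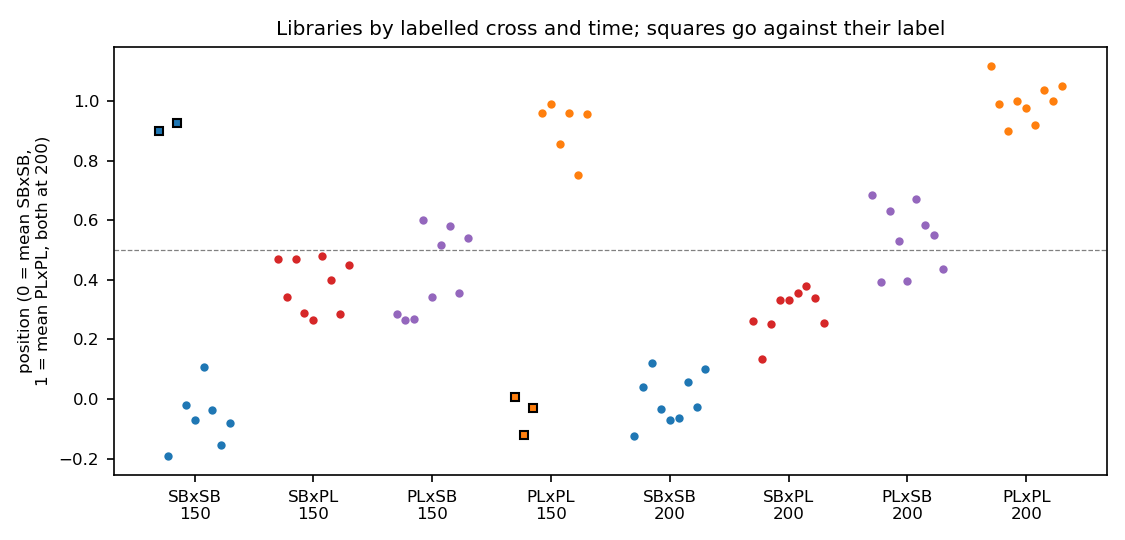
Position of each mRNA library between the pure crosses (vertical axis, no unit; 0 is the mean of SBxSB and 1 the mean of PLxPL, both at 200 τs), by labelled cross and time point, with 1 point per embryo. The 9 SBxPL libraries at 200 τs lie between 0.136 and 0.379, and 5 libraries at 150 τs, drawn as squares, lie at the end opposite to their label.

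Few genes differed between the crosses. Those with a product name included genes named after proteins of muscle, membrane traffic, the nuclear pore and splicing. Of 40311 genes tested, 32 differed between SBxPL and SBxSB at 200 τs, which is 0.0794% (edgeR's quasi-likelihood test, Benjamini-Hochberg adjusted p under 0.1). In SBxPL, 19 were higher (0.0471% of genes) and 13 lower (0.0322%). The median size of the log2 fold change was 0.96 among the called genes and 0.14 over all genes, and 15 of the 32 changed by at least 2-fold. All 32 carry LOC numbers, and a product name or class could be given for 11 of them. Names were available only for genes that the study listed as biased to PL in hybrids, and 10 of the 11 were listed at 200 τs. Of 28 tested genes matched to the study's list at 200 τs, 10 were called here and 27 by DESeq2, the study's tool. That list was drawn from these same embryos and required a difference between these 2 crosses. Called genes outside the study's lists could not be named, so the named classes do not describe all 32. The embryos of the 2 crosses did not overlap for 3 of the 32 genes, while this held for 9 of all 40311 genes (0.0223%). For 1 of the 3, LOC111978546, the gap was from 0.0592 CPM in SBxSB, which is 1 read, to 0.0633 CPM in SBxPL. Family means did not overlap for 25 of the 32 genes, and for 3906 of all genes (9.69%). The 32 were called on these same embryos, so larger shares than over all genes are expected.

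The number of calls depended on the families. With family H1505 left out, 3597 genes were called, and 1361 without H1503. Without H1502, H1504, H1506 or H1507 the count was 18, 9, 18 or 11. Summing the siblings of each family left 4 genes, and treating family as a random block in limma-voom left 2. One gene, LOC111973923, was called under every alternative other than the fits on a single letter. Without the 5 libraries at 150 τs, all 32 genes were called again among 53.

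Both myozenin-2-like, named after a muscle protein, and parvalbumin-7 were called and higher in SBxPL. Parvalbumins are found in muscle, but the tissue that expressed parvalbumin-7 was not tested. Parvalbumin-7 (LOC111981097), a calcium buffer of the parvalbumin family, ranged from 4.34 to 17.1 CPM in SBxSB with a median of 12.6, and from 16.4 to 34.9 CPM in SBxPL with a median of 22.5. The groups met only at their edges, with the lowest values in family H1504. Its log2 fold change was 0.92 ± 0.18 (SE, edgeR adjusted p = 0.0233). The call was kept with family as a random block (limma adjusted p = 0.0118) but lost on family sums (edgeR adjusted p = 0.440) and without H1504 or H1507 (adjusted p = 0.381 and 0.261). Myozenin-2-like (LOC111967380) belongs to a family of Z-disc proteins that bind calcineurin. Its values ran from 20.4 to 40.5 CPM in SBxSB (median 37.2) and from 37.9 to 72.1 CPM in SBxPL (median 55.5). Here 8 of the 9 SBxPL embryos exceeded the highest SBxSB embryo. In the fit the log2 fold change was 0.73 ± 0.17 (edgeR adjusted p = 0.0986), and without H1502, H1504, H1506 or H1507 the adjusted p lay between 0.222 and 0.654.

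**Figure D2:**
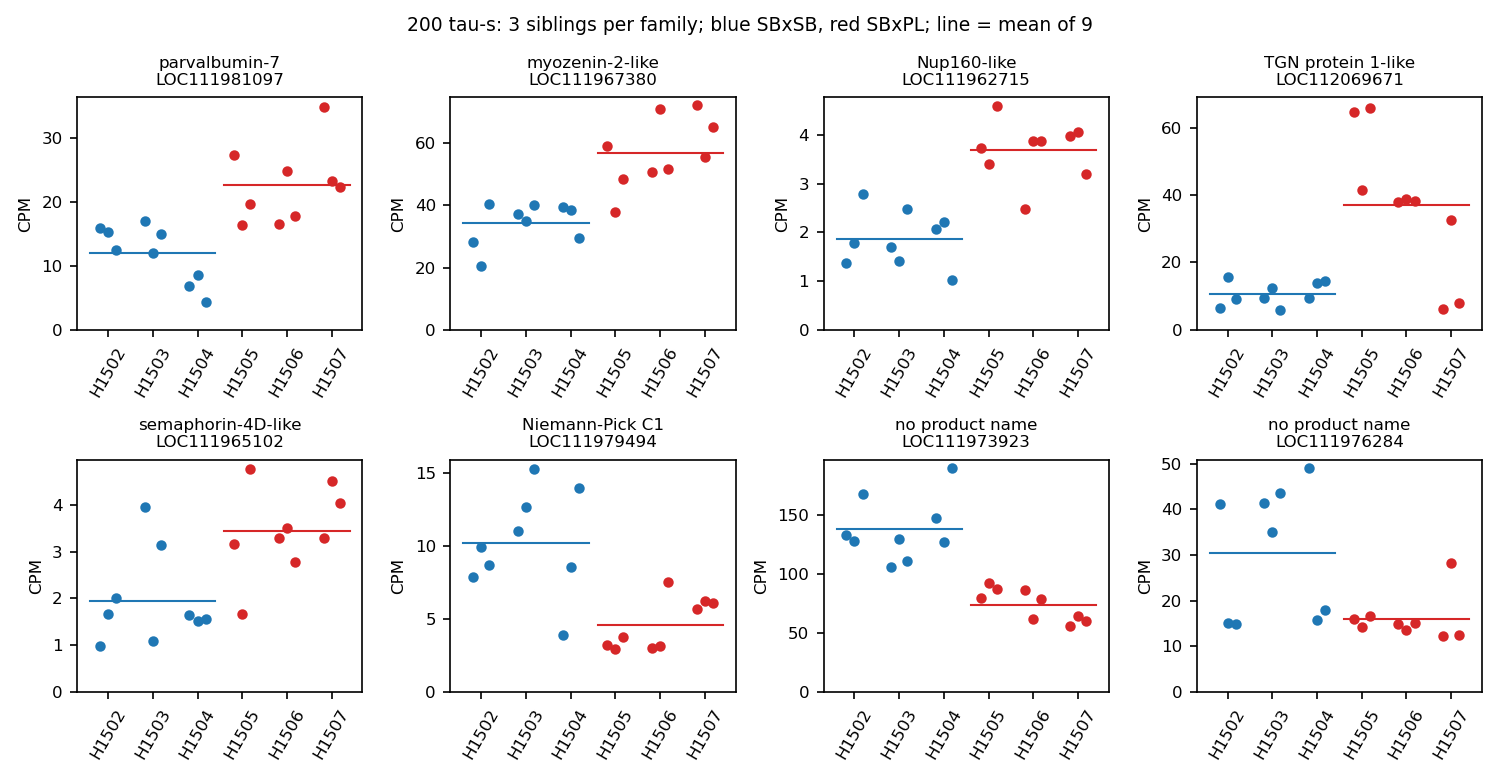
CPM (vertical axes) of 8 called genes in each embryo at 200 τs, by family, with SBxSB in blue, SBxPL in red and lines for the means of 9 embryos. Parvalbumin-7 averages 11.98 CPM in SBxSB and 22.6 CPM in SBxPL, LOC111973923 falls from 138 to 74.1 CPM, and LOC112069671 and LOC111976284 vary among siblings.

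A wider list of muscle genes gave no call in the main fit. In the list of 41 muscle fibre and sarcomere genes with their own symbol, 0 passed the adjusted threshold. In each of 3 alternatives 1 gene passed: DESeq2, filterByExpr, and the fit without the 5 libraries at 150 τs. At an unadjusted p under 0.05, 13 were higher (31.7%) and 0 lower, against 5.12% and 7.23% of all genes. Among all genes with a symbol of their own, 3.88% were higher and 13.1% lower. The median log2 fold change of the list was 0.20, beside 0.01 for all genes. The member with the smallest p was mlip, which encodes a muscle protein that binds lamin. It ranged from 5.61 to 11.8 CPM in SBxSB and from 10.2 to 19.9 CPM in SBxPL (log2 fold change 0.60 ± 0.15, edgeR adjusted p = 0.113). Titin, the molecular spring of the sarcomere, averaged 383 ± 125 CPM (SD, n = 9) in SBxSB and 542 ± 176 CPM in SBxPL (adjusted p = 0.415). Of the 9 muscle development factors, 3 were higher at an unadjusted p under 0.05, led by tbx15, a T-box factor expressed in muscle and skeletal precursors (log2 fold change 0.42 ± 0.11, adjusted p = 0.147). Both mlip and tbx15 are on the study's list of genes biased to PL at 200 τs. The study thus called them in this comparison, on the same embryos.

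These muscle counts moved with particular families. As a median over the 30 muscle genes with at least 1 CPM, the SBxSB family H1504 lay at -0.33 and H1502 at -0.19 on the log2 scale relative to the mean of the 18 embryos, while H1503 lay at 0.12. The SBxPL families lay at 0.11, 0.03 and 0.27 for H1505, H1506 and H1507. SBxSB embryos ranged from -0.64 to 0.20 and SBxPL embryos from -0.08 to 0.33, so the crosses overlapped. Without H1504, 4 of the 41 genes were higher at an unadjusted p under 0.05, beside 3.25% of all genes, and without H1507 it was 2, beside 2.29%. In the other direction, without H1503 it was 17, of which 11 passed the adjusted threshold, beside 7.41% of all genes. Without H1505 it was 11, of which 5 passed, beside 7.58%. These shares of all genes are at the unadjusted threshold. Far more of all genes also passed the adjusted one in these fits, as counted above for each family left out. In whole embryos, more muscle and more RNA per muscle cell cannot be told apart.

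Lists of genes with basic functions lay on the lower side in SBxPL, also with 0 calls each in the main fit. Of 42 genes of the mitochondrial ribosome, which translates the proteins encoded in mitochondria, 3 had a positive fold change. At an unadjusted p under 0.05, 8 were lower and 0 higher. The member with the smallest p, mrpl16, averaged 37.2 ± 6.55 CPM in SBxSB and 27.8 ± 5.22 CPM in SBxPL (edgeR adjusted p = 0.200). Among 39 splicing factors, 9 were lower and 0 higher at that threshold, led by snrpa1, a protein of the U2 particle (log2 fold change -0.28 ± 0.09, adjusted p = 0.230). Among 57 genes of DNA replication and repair, 14 were lower and 1 higher, led by ercc6l, a helicase of mitosis (log2 fold change -0.34 ± 0.11, adjusted p = 0.221). Genes with a symbol of their own were generally on this side, with 13.1% lower and 3.88% higher at that threshold among 4566. Family H1507 had the lowest mean of the mitochondrial ribosome, splicing and replication lists, at -0.38, -0.22 and -0.22 on the log2 scale relative to all 18 embryos. Without it, 1, 0 and 0 genes of these lists were lower at an unadjusted p under 0.05, and the share of all genes lower fell as well, to 1.95%. Without H1505, the mitochondrial ribosome list had 32 lower genes at that threshold, while 11.9% of all genes were lower in that fit. Of these list genes, 20 passed the adjusted threshold, as did 13 splicing factors and 15 genes of DNA replication and repair. Calls over all genes also rose without H1505, to the count given above.

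**Figure D3:**
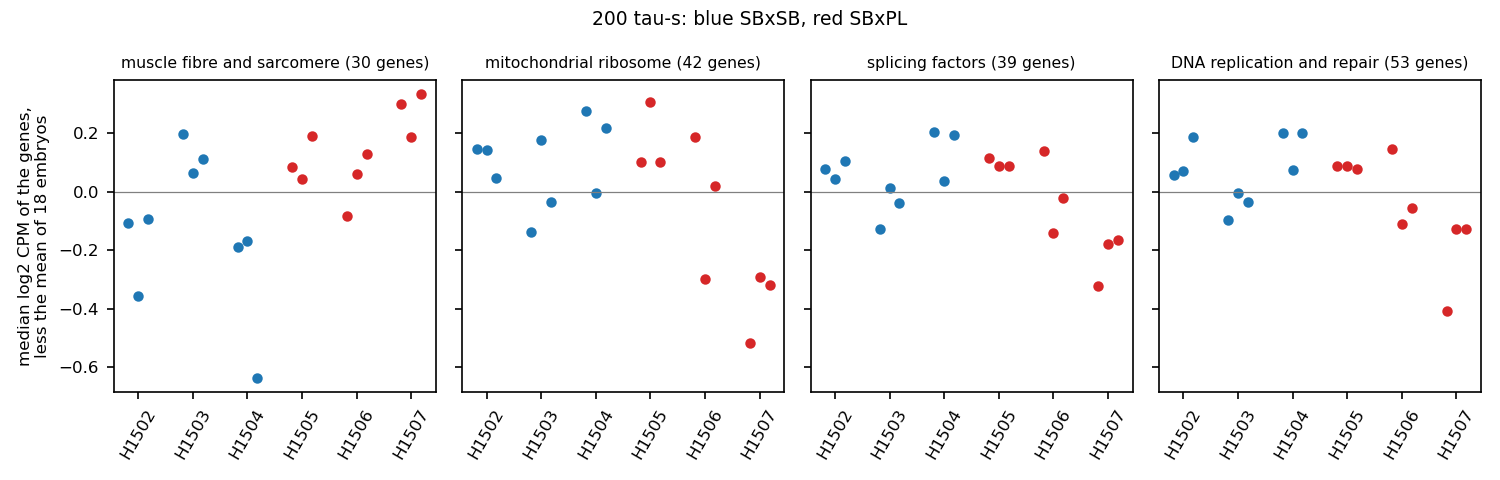
Median over the genes of each list of log2 CPM less the mean of the 18 embryos (vertical axis, log2 units), for each embryo at 200 τs by family, with SBxSB in blue and SBxPL in red. H1504 has the lowest muscle values, at a mean of -0.33, and H1507 the lowest values of the other 3 lists.

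Among 42 genes of cartilage, bone and jaw patterning, 0 were called in the main fit. DESeq2, filterByExpr and the fit without the 5 libraries at 150 τs each called 1, and the fits without H1503 and H1505 called 3 and 2. At an unadjusted p under 0.05, 4 were lower (9.52%) and 2 higher (4.76%), beside 7.23% and 5.12% of all genes. Among genes with a symbol of their own, 13.1% were lower and 3.88% higher. The median log2 fold change was -0.04 in the list and -0.04 in that class. The smallest p belonged to slc10a7, a membrane protein needed for normal skeletal growth in mammals. It averaged 8.60 ± 1.97 CPM in SBxSB and 5.88 ± 1.42 CPM in SBxPL (log2 fold change -0.55 ± 0.13, edgeR adjusted p = 0.104). The study's list of genes biased to PL at 200 τs also holds slc10a7. Lists of other tissues and organelles also had 0 calls in the main fit, while the same alternatives each called 1 solute carrier. The solute carrier list also holds slc10a7, as its member of smallest p, so this may be the same gene. Without H1505, 15 solute carriers, 11 trafficking and 7 cilium genes were called, and without H1503 it was 5, 3 and 2. Calls over all genes also rose in those fits. Counts of these lists at an unadjusted p under 0.05 are to be read against genes with a symbol of their own, at 3.88% higher and 13.1% lower. Transfer RNA genes are outside that class and are read against all genes. Of 10 lens and neuron markers, 0 passed an unadjusted p under 0.05. Of 16 liver and plasma genes, 1 was higher (6.25%) and 1 lower (6.25%), and of 57 cilium genes 3 (5.26%) and 7 (12.3%). Of 82 Golgi and membrane trafficking genes, 1 was higher (1.22%) and 9 lower (11.0%), and of 87 solute carriers 2 (2.30%) and 13 (14.9%). The nuclear pore list of 10 genes had 0 higher and 1 lower, the respiratory chain list of 19 genes 0 and 1, and the 90 transfer RNA genes 3 and 5.

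Of the called genes, 3 have product names from membrane traffic, 2 of them higher and 1 lower in SBxPL. The trafficking list above had 0 calls in the main fit. The gene LOC112069671, named after an integral membrane protein of the trans-Golgi network, is related to proteins that cycle between the trans-Golgi network and the cell surface. SBxSB embryos held from 5.87 to 15.8 CPM with a median of 9.53, and SBxPL embryos from 6.22 to 65.9 CPM with a median of 38.3. The hybrids fell on several levels, with siblings A and C of H1507 at 6.22 and 7.99 CPM, inside the SBxSB range. Another 5 hybrids lay between 32.5 and 41.4 CPM, and siblings A and C of H1505 lay at 64.5 and 65.9 CPM. In the other crosses at 200 τs, the 9 PLxSB embryos lay between 31.3 and 39.9 CPM and the 9 PLxPL embryos between 51.3 and 71.0 CPM. The log2 fold change of SBxPL against SBxSB was 1.79 ± 0.38 (edgeR adjusted p = 0.0509). The adjusted p was 0.174 without H1502, 0.115 without H1504 and 0.141 without H1506.

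Niemann-Pick C1 protein (LOC111979494), which exports cholesterol from late endosomes and lysosomes, was lower in SBxPL. It ranged from 3.88 to 15.3 CPM in SBxSB (median 9.91) and from 2.91 to 7.52 CPM in SBxPL (median 3.77). On the log2 scale the fold change was -1.15 ± 0.27 (edgeR adjusted p = 0.0856). One SBxSB embryo of H1504 lay within the SBxPL range and the other 8 lay above it. Without H1502, H1504, H1506 or H1507 the adjusted p lay between 0.107 and 0.200.

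Ras-related protein Rab-8A-like (LOC111978879) is related to a small GTPase that directs vesicles to the plasma membrane and the cilium. At least 1 CPM was present in 7 of 9 SBxPL embryos, between 9.52 and 18.4 CPM, while the siblings with letter C of H1505 and H1507 had 0.0629 and 0.152 CPM. The 9 SBxSB embryos had at most 0.304 CPM. The gene thus took either of 2 states among full siblings, and SBxSB showed one of them. The fitted log2 fold change was 6.69 ± 1.56 (edgeR adjusted p = 0.0856), and without H1502, H1504, H1506 or H1507 the adjusted p lay between 0.158 and 0.348. In the other crosses at 200 τs, 4 of 9 PLxSB and 6 of 9 PLxPL embryos exceeded 1 CPM.

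2 called genes have names from nuclear processes. Nuclear pore complex protein Nup160-like (LOC111962715) is related to a scaffold subunit of the pore through which RNA and protein pass. It ranged from 1.03 to 2.78 CPM in SBxSB (median 1.79) and from 2.48 to 4.59 CPM in SBxPL (median 3.87). The 3 SBxPL families averaged 3.91, 3.41 and 3.74 CPM and the SBxSB families 1.98, 1.86 and 1.77 CPM, so families within a cross lay close together. The fitted log2 fold change was 0.98 ± 0.20 (edgeR adjusted p = 0.0489). It was also called on family sums (adjusted p = 0.0280), but not with family as a random block (limma adjusted p = 0.202), nor without H1504 or H1507 (0.185 and 0.189).

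The splicing factor U2AF large subunit gene LOC111955992 encodes a protein that recognizes the 3′ splice site. SBxSB embryos had from 0.119 to 0.770 CPM. In SBxPL, all 3 siblings of H1505, sibling B of H1506 and sibling A of H1507 had between 5.25 and 9.37 CPM, and the other 4 had between 0.559 and 0.837 CPM. As with Rab-8A-like, siblings of one family thus differed. The fitted difference was 3.45 ± 0.65 on the log2 scale (edgeR adjusted p = 0.0182), with an adjusted p of 0.151 without H1502 and 0.126 without H1504. At least 1 CPM was reached by 8 of 9 PLxSB and 2 of 9 PLxPL embryos at the same age.

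**Figure D4:**
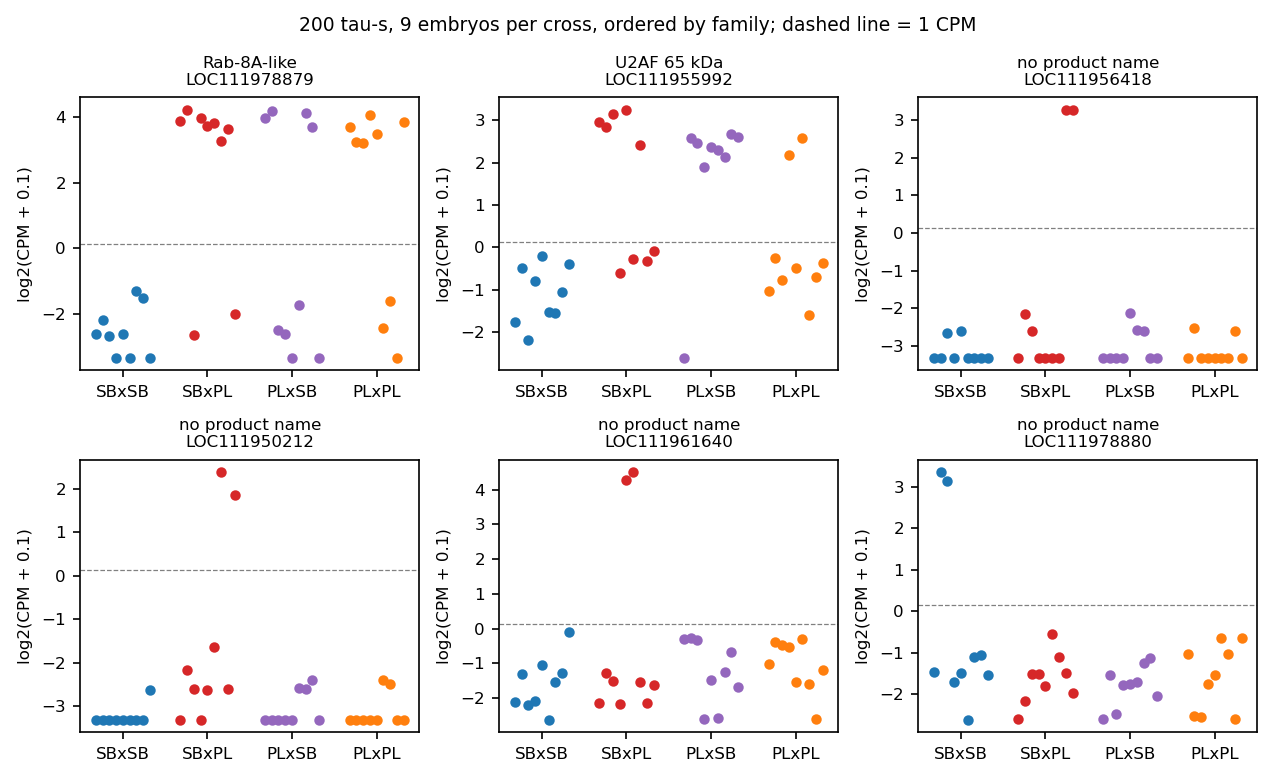
Expression of 6 called genes as log2(CPM + 0.1) (vertical axes) in the 9 embryos of each cross at 200 τs, with the dashed line at 1 CPM. Rab-8A-like exceeds 1 CPM in 7 of 9 SBxPL embryos and 0 of 9 SBxSB embryos, and LOC111956418, LOC111950212 and LOC111961640 do so in 2 SBxPL embryos each.

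Semaphorin-4D-like (LOC111965102) is related to a membrane semaphorin, a guidance signal for axons and vessels. It ranged from 0.975 to 3.95 CPM in SBxSB (median 1.64) and from 1.67 to 4.78 CPM in SBxPL (median 3.295). The groups overlapped, with the highest SBxSB embryo in H1503 and the lowest hybrid in H1505. The crosses differed by a log2 fold change of 0.82 ± 0.19 (edgeR adjusted p = 0.0761). Leaving out H1502, H1504, H1506 or H1507 gave an adjusted p between 0.141 and 0.616. Transcripts of unknown function were also higher in SBxPL. The uncharacterized LOC112078614 averaged 2.92 ± 0.89 CPM (SD, n = 9) in SBxSB and 5.46 ± 0.97 CPM in SBxPL, and the uncharacterized LOC111981653 averaged 15.9 ± 4.5 and 23.3 ± 3.8 CPM. The noncoding RNA LOC112077739 averaged 2.50 ± 1.20 and 4.83 ± 1.58 CPM. For none of these 3 did the embryos of the 2 crosses separate without overlap, although their family means did.

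Of the genes without a product name, LOC111973923 had the smallest p. It ranged from 105.9 to 190 CPM in SBxSB (median 130) and from 55.7 to 92.2 CPM in SBxPL (median 78.8). Every hybrid lay below every SBxSB embryo. The log2 fold change was -0.90 ± 0.13 (edgeR adjusted p = 0.000158), and leaving out families gave values between -1.02 and -0.77 with an adjusted p of at most 0.0340. On family sums its adjusted p was 0.0280, and with family as a random block it was 0.00185.

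LOC111966087 also did not overlap, at a much lower level, with 0.955 to 1.88 CPM in SBxSB and 0.228 to 0.928 CPM in SBxPL (edgeR adjusted p = 0.0434; 0.239 without H1504 and 0.291 without H1507). LOC111976284 ran from 14.9 to 49.0 CPM in SBxSB and from 12.3 to 28.3 CPM in SBxPL. Among SBxSB embryos, 5 lay between 35.0 and 49.0 CPM and 4 between 14.9 and 18.02 CPM, and all 3 siblings of H1503 were in the upper set. SBxPL lay between 12.3 and 16.6 CPM except for sibling B of H1507. Its log2 fold change was -0.93 ± 0.22 (edgeR adjusted p = 0.0827; 0.275 without H1506 and 0.192 without H1507). On family sums its adjusted p was 0.0280, but it was 0.357 with family as a random block in limma and 0.105 with the letter as a block.

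Lower values in SBxPL were also found in LOC111970303 and LOC111968817. LOC111970303 ranged from 0.739 to 5.37 CPM in SBxSB (median 1.24) and from 0.312 to 1.29 CPM in SBxPL (median 0.807), with family means in SBxSB of 0.934, 1.75 and 3.52 CPM. Its log2 fold change was -1.38 ± 0.28 (edgeR adjusted p = 0.0310), but without H1504 it was -0.75 (adjusted p = 0.731), and without H1506 the adjusted p was 0.161. LOC111968817 ranged from 0.889 to 3.03 CPM in SBxSB (median 1.48) and from 0.445 to 1.24 CPM in SBxPL (median 0.869). Its log2 fold change of -1.05 ± 0.24 (adjusted p = 0.0856) was -0.67 without H1504 (0.755). Its adjusted p was 0.132 without H1506 and 0.616 without H1507. Another 5 genes fell by less than 1 on the log2 scale. LOC111979295 went from 138 to 90.5 CPM on average, LOC111952732 from 24.3 to 16.7 CPM and LOC111956145 from 15.03 to 8.19 CPM. LOC111967821 went from 27.7 to 23.3 CPM and LOC111964864 from 16.97 to 13.1 CPM.

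On the higher side, LOC111951287 went from 0.968 to 2.93 CPM on average, LOC111963037 from 0.872 to 2.05 CPM and LOC111965968 from 11.4 to 18.96 CPM. LOC112071140 went from 19.3 to 30.1 CPM and LOC111965645 from 6.22 to 8.04 CPM. The embryos of the crosses overlapped in all 5 of these genes, and their family means did not.

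Several called genes owed their difference to a few siblings. LOC111956418 had 278 reads over SBxPL, of which siblings B and C of H1507 gave 149 and 126, and 2 reads over SBxSB. The ratio of the 2 crosses was 144 (95% exact interval of the counts 39.5 to 1190, counting error only). LOC111950212 had 138 reads in SBxPL, with 84 and 46 in siblings A and C of H1507, and 1 in SBxSB (ratio 143, interval 25.2 to 5680). These 2 genes were thus present in different pairs of siblings of one family, and without H1507 neither was called (adjusted p = 1 for both). LOC111961640 reached 19.2 and 22.6 CPM in siblings B and C of H1506, while the other 16 embryos did not exceed 0.844 CPM. The log2 fold change was 4.03 ± 0.95 (edgeR adjusted p = 0.0891), but without H1506 it was -0.39 (adjusted p = 0.894). The calls of these 3 genes were also lost without H1502 or H1504, with an adjusted p from 0.209 to 0.384.

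The reverse pattern, presence in some SBxSB siblings, was seen in LOC111978880 and LOC111972539. LOC111978880 had 10.2 and 8.77 CPM in siblings B and C of H1502 and at most 0.584 CPM in the other 16 embryos. The log2 fold change was -3.20 ± 0.76 (edgeR adjusted p = 0.0966), and -0.03 without H1502 (0.987). Its adjusted p was 0.218 without H1506 and 0.509 without H1507. LOC111972539 had 69 reads in SBxSB, in all 3 siblings of H1503 and sibling A of H1504, and 1 read in SBxPL (ratio 66.7, interval 11.6 to 2670). No read of it was counted in the 18 PLxSB and PLxPL embryos at 200 τs. Its adjusted p was 0.0761, and 0.104, 0.218 and 0.502 without H1503, H1506 and H1507. LOC111978546 was the exception among the genes with few reads, since each of the 9 SBxPL embryos held some of its 62 reads, against 1 read over SBxSB (ratio 64.2, interval 11.1 to 2580; adjusted p = 0.0576). Its adjusted p rose to 0.174, 0.266 and 0.276 without H1502, H1504 and H1507.

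At 150 τs, the same crosses from the same families were sampled in other embryos. With all libraries as labelled, 64 genes (0.159%) were called in SBxPL against SBxSB, 43 higher (0.107%) and 21 lower (0.0521%), and 131 without the 5 libraries that went against their labels. Of the 32 genes called at 200 τs, 5 were called at 150 τs, and 8 without those libraries. The direction at 150 τs was that at 200 τs for 30 of the 32 genes, or 29 without the 5 libraries, and for 59.1% of all genes, or 62.2% without them. Since the families were the same at both ages, this is no independent sample of families. The median size of the log2 fold change at 150 τs was 0.42 for the 32 genes and 0.107 over all genes. Because the 32 were chosen for their differences at 200 τs, a smaller size at 150 τs is expected.

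Single genes depended on those libraries. Rab-8A-like exceeded 1 CPM in 6 of 9 SBxPL embryos at 150 τs, at 16.8 to 20.7 CPM, and among the libraries labelled SBxSB in sibling A of H1502 alone, at 18.1 CPM, a library that went against its label. The log2 fold change at 150 τs was 2.54 ± 1.01 with all libraries and 6.58 ± 1.499 without the 5 (edgeR adjusted p = 0.670 and 0.0288). For the trans-Golgi network protein LOC112069671 it was 0.56 ± 0.37 with all and 1.48 ± 0.30 without (adjusted p = 0.954 and 0.00845). The U2AF gene LOC111955992 differed at 150 τs either way, with 4.09 ± 0.69 and 4.18 ± 0.79 (adjusted p = 0.000914 and 0.00331), and 7 of 9 SBxPL embryos exceeded 1 CPM. Siblings B and C of H1506 expressed LOC111961640 at 13.8 and 15.9 CPM at 150 τs, and siblings B and C of H1502 expressed LOC111978880 at 6.32 and 13.7 CPM. Letters mark different embryos at the 2 ages, so these are other siblings of the same families. In all, LOC111961640 exceeded 1 CPM in 3 SBxPL embryos and 1 PLxSB embryo at 150 τs, the latter at 9.44 CPM. LOC111956418 and LOC111950212 each did so in 1 SBxPL and 1 PLxSB embryo. Their values there were 7.60 and 7.95 CPM for LOC111956418 and 2.35 and 2.07 CPM for LOC111950212.

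Parvalbumin-7 (LOC111981097) differed in level between the ages, with 2.24 ± 0.49 CPM (SD, n = 9) in SBxPL at 150 τs, and its log2 fold change there was 0.51 ± 0.23 (edgeR adjusted p = 0.794; 0.761 without the 5 libraries). The difference between the fold changes at 200 and 150 τs was called for 0 genes (0%) by edgeR and 0 by DESeq2, and 1869 genes had an unadjusted p under 0.05 in edgeR (4.64%). A change in the response between the ages was thus not detected at this number of families.

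The father's morph was also exchanged under PL mothers, in PLxPL against PLxSB at 200 τs. These 18 embryos are not those of the comparison under SB mothers. Under PL mothers, 153 genes (0.380%) were called, and 0 of the 32 genes were among them. Of the 32, 24 had the same direction under both kinds of mother, against 66.9% of all genes. Under PL mothers the median size on the log2 scale was 0.28 for the 32 and 0.149 over all genes. A smaller size than under SB mothers is expected, since the 32 were chosen there. A PL father gave a hybrid under SB mothers and a pure cross under PL mothers. The difference between the mothers is therefore also that of both hybrids against both pure crosses, and these cannot be told apart. It was called for 5 genes (0.0124%), 1 of them among the 32. This was the U2AF gene LOC111955992, with a log2 fold change of 3.45 ± 0.65 under SB mothers and -1.60 ± 0.56 under PL mothers (difference 5.05 ± 0.86, edgeR adjusted p = 0.00580). It averaged 4.53 CPM in SBxPL and 4.60 CPM in PLxSB, the hybrids, and 0.412 CPM in SBxSB and 1.55 CPM in PLxPL. For parvalbumin-7 the log2 fold change under PL mothers was 0.25 ± 0.18 (LOC111981097), and its difference between the mothers had an adjusted p of 1. Myozenin-2-like (LOC111967380) had 0.12 ± 0.17 under PL mothers, Nup160-like (LOC111962715) 0.20 ± 0.20 and the trans-Golgi network protein LOC112069671 0.75 ± 0.36.

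**Figure D5:**
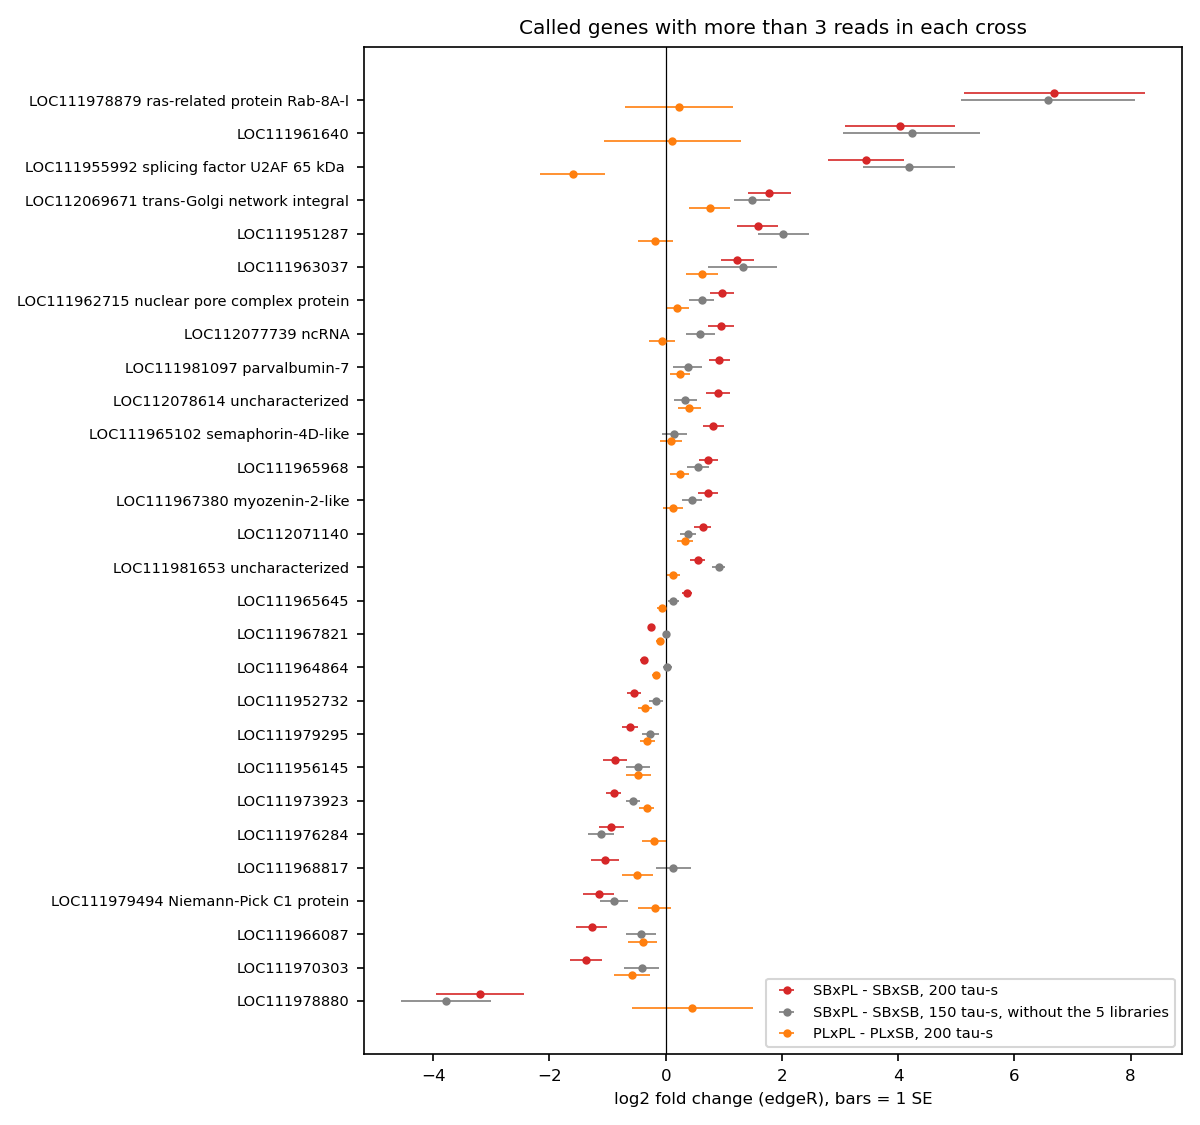
Log2 fold changes (horizontal axis, bars 1 SE) of the called genes with more than 3 reads in each cross, for SBxPL against SBxSB at 200 τs (red) and 150 τs without the 5 libraries (grey), and for PLxPL against PLxSB at 200 τs (orange). U2AF (LOC111955992) is at 3.45, 4.18 and -1.60. Most of the smaller changes lie nearer 0 in the grey and orange points, which is expected because the genes were chosen on the red ones.

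Levels in all 4 crosses at 200 τs are given side by side, since comparisons with SBxSB share its embryos. Parvalbumin-7 (LOC111981097) averaged 11.98 ± 4.4 CPM (SD, n = 9) in SBxSB, 22.6 ± 6.0 in SBxPL, 21.2 ± 7.3 in PLxSB and 25.2 ± 8.3 in PLxPL. SBxSB was the lowest, and the other 3 crosses lay within 1 SD of each other. Myozenin-2-like (LOC111967380) averaged 34.3 ± 6.8, 56.8 ± 11.3, 61.1 ± 16.4 and 66.5 ± 25.6 CPM in the same order. Nup160-like (LOC111962715) averaged 1.87 ± 0.57, 3.69 ± 0.60, 3.75 ± 1.02 and 4.29 ± 0.75 CPM. Again SBxSB stood below the others for these 2 genes. Niemann-Pick C1 (LOC111979494) averaged 10.2 ± 3.5, 4.61 ± 1.76, 4.30 ± 1.72 and 3.77 ± 1.45 CPM, with SBxSB the highest. All of these genes are on the study's list of expression biased to PL at 200 τs, drawn from the same embryos. That list required each hybrid cross to differ from SBxSB and not from PLxPL. Their pattern over the crosses was thus set by how they were chosen and is no separate result. LOC111951287 averaged 0.968 ± 0.392, 2.93 ± 1.58, 5.89 ± 2.03 and 5.22 ± 2.05 CPM, so that SBxPL lay between SBxSB and the crosses with PL mothers.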

How the data were processed

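The authors deposited raw counts per gene for each embryo. The submitters' processing notes name FastQC, cutadapt, STAR and featureCounts, with versions not given in the sources used here. The counting settings that the study states include no strand option. Without strand, overlapping and antisense genes cannot be separated. Of 42433 rows, 40311 with at least 10 reads over the 72 mRNA libraries were tested with edgeR 4.0.16 in R 4.3.3 (TMM, 8 group means, quasi-likelihood test, Benjamini-Hochberg adjusted p under 0.1). Alternatives used limma 3.58.1 and DESeq2 1.42.0. The test was run on simulated counts with known changes before use. Those counts were drawn independently for each embryo, without families, so the run does not bear on siblings. P-values measure spread between embryos, and siblings are not independent. The 2 SBxSB and 3 PLxPL libraries at 150 τs against their labels were found after seeing the data, as was the comparison under PL mothers. The members and gene lists were chosen with earlier results of these data known, and lists use gene symbols rather than the planned product names, so LOC genes are outside them. Product names come from the study's supplement, from its lists of genes biased to PL in hybrids. All called genes could be named, with full values for the 5 largest increases and 5 largest decreases averaging 1 CPM or more, and each list's member of smallest p. Genes beyond this rule that have full values were chosen after their values were seen. Small RNA libraries were not used here.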

Additional observations from a re-analysis of the deposited data

Results flagged for a closer look

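Among the 64 sets of 9 embryos formed by the 32 called genes in each cross at 200 τs, 7 held an embryo far from the other 8 by Dixon's criterion, and chance flags about 1 in 20. In SBxSB, sibling C of H1504 stood apart in LOC111950212 (0.0603 CPM against 0), in LOC111967821 (32.4 CPM, next 28.4) and in LOC111961640 (0.844 CPM, next 0.385). Sibling C of H1502 stood apart in LOC111978546 (0.0592 CPM against 0) and sibling A of H1502 in LOC111981653 (26.5 CPM, next 18.1). In SBxPL, sibling C of H1506 stood apart in LOC111972539 (0.0730 CPM against 0), and sibling B of H1507 in LOC111976284 (28.3 CPM, next 16.6). The 3 values against 0 are 1 read each, and a single read beside zeros is always flagged.

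For the U2AF gene LOC111955992, the log2 fold change of PL against SB fathers differed between SB and PL mothers by 5.05 ± 0.86 (SE, edgeR adjusted p = 0.00580). The same contrast sets both hybrids against both pure crosses. This test treats siblings as independent, and no alternative was run for the difference. Under SB mothers, the call was lost on family sums (edgeR adjusted p = 0.364). It was also lost with family as a random block (limma adjusted p = 0.378).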

How the results depend on the processing

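Of the 32 genes called at 200 τs (8 at an adjusted p under 0.05), DESeq2 called 28 among 81 and gave 29 of them an adjusted p, the fit on the 18 embryos alone 12 among 33, and the fit with the letter as a replicate block 22 among 22. DESeq2 size factors gave 30 calls, rows with at least 1 read 33, and filterByExpr 35. Family sums gave 4, 3 of them among the 32, and the random family block 2. Leaving out a family gave 9 to 3597 calls. The embryos of letters A, B and C alone gave 0, 2 and 1 calls, and 94 of 96 gene values within them had the direction of the whole. The 2 others were LOC111956418 (0 on the log2 scale) and LOC111961640 (-0.049) in letter A, and LOC111961640 ranged from -0.39 to 4.60 without 1 family, reversed without H1506. Without the 5 libraries there were 53 calls. The cause of these differences was not tested.

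At 150 τs, with 64 calls, DESeq2 gave 32, filterByExpr 41, the embryos compared alone 3, family sums and the family block 0 each, an adjusted p under 0.05 36, and the replicate block 46. Letters A, B and C alone gave 3, 3 and 0, leaving out a family 0 to 127, and leaving out the 5 libraries 131. For the difference between the ages, calls stayed at 0 except without a family (0 to 9) and in letters A and B (1 each). Between crosses, deviations from the group means correlated at a mean of 0.0377 for the same letter (-0.464 to 0.589). For different letters the mean was -0.0135 (-0.431 to 0.493). Centring on group means holds the mean over all these pairs near 0, and a batch effect of the letters was not tested. Within a cross, deviations correlated at a mean of 0.200 between siblings and -0.221 between families. Centring each cross on its own mean pushes these correlations below 0 on average, so the negative sign is no result about families.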
